A study of Mus musculus with 5 samples.

Results

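The genes described here are 10 genes of the mast cell: 7 proteases of the secretory granule (Mcpt1, Mcpt2, Mcpt4, Mcpt8, Cma1, Cpa3 and Tpsb2), 2 subunits of the high-affinity receptor for IgE (Fcer1a and Ms4a2) and the growth factor receptor Kit. They were found by symbol among the 55573 gene identifiers counted in each library, and each symbol matched 1 identifier. The list was chosen from results of this same comparison, so the values of the 10 genes are given as a description and without a test.

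Bulk RNA was sequenced from the right hemisphere of C57BL/6 female mice. All of the mice had received GL261 cells, an established mouse glioma line that here carried a luciferase/mKate2 vector, in the right caudate nucleus-putamen at 7 to 8 weeks of age. Libraries from 2 mice treated with UMBO (ultrasound-mediated blood-brain barrier opening, in which pulsed ultrasound is applied after an intravenous injection of microbubbles) were compared with libraries from 3 mice given the vehicle, the inVivoPure pH 6.5 dilution buffer, to ask what the opening of the barrier does to gene expression. Sessions took place on days 21 and 24, and the hemisphere was taken 24 h after the last of them. The paper describes n = 3 per group, whereas 2 UMBO libraries were at hand here. Each library came from a different mouse. Whether the vehicle mice received microbubbles or anesthesia on these days is not given in the sources used here.

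Libraries held 59736771 to 86164159 counted reads. UMBO replicate 2 stood apart from the rest, with a chi-square per gene of 270.4 to 650.5 against the other libraries, where pairs of the other 4 libraries gave 52.2 to 116. Values without UMBO replicate 2 are therefore given below. UMBO replicate 1 did not stand apart from the vehicle libraries by this measure. It gave 113.2, 52.2 and 70.9 against vehicle replicates 1 to 3, where pairs of vehicle libraries gave 65.6, 113.1 and 116. A hemisphere with a tumor holds brain, tumor, meninges and blood, and the counts cannot say which of these held a mast cell gene. In such bulk RNA, fewer cells of a type and less RNA per cell cannot be told apart.

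Mast cells are tissue-resident immune cells that in the brain lie mainly in the meninges, around vessels and near the thalamus. They store proteases bound to heparin in granules and release them within minutes when IgE on the Fcε receptor I meets its antigen, or through complement and other receptors. In the mouse, the chymases Mcpt1 and Mcpt2 are known from mucosal mast cells, whereas Mcpt4, Cma1, the carboxypeptidase Cpa3 and the tryptase Tpsb2 are known from mast cells of connective tissue. Mcpt8 is known from basophils, but it is counted here among the 10 mast cell genes and the 7 mast cell proteases. Kit is the receptor for stem cell factor, on which mast cells depend, but neurons, melanocytes and other cells carry it too.

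Of the 10 genes, 8 had every UMBO value above every vehicle value, namely all 7 proteases and Fcer1a. Among all 40435 genes with a count in any library, 10.4% had this order and 8.73% the reverse order, which 0 of the 10 genes had. The ratio of the mean CPM (counts scaled by TMM to a common library size) between the groups lay between 3.87 and 7.75 for 6 of the proteases and was 7.46 for Fcer1a, while Mcpt8 was almost absent from the vehicle libraries. The 95% exact Poisson intervals of the nearest vehicle and UMBO libraries were apart for Mcpt1 and Mcpt2 and overlapped for the other 6 of these 8 genes. Kit and Ms4a2 overlapped between the groups. The median log2 difference of the 10 genes was 2.11, against 0.04 over the genes with a count.

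Low counts left 7 of the 10 genes in the comparison across all 23592 genes, and Mcpt8, Cma1 and Ms4a2 did not pass the filter. A gene that is low with vehicle can pass this filter through the UMBO libraries alone, so the 7 are not a sample of the 10. By edgeR's quasi-likelihood test with Benjamini-Hochberg adjustment, 0 of the 7 genes had an adjusted p under 0.05, as did 0 of all genes (0%). At an unadjusted p under 0.05, 6 of the 7 were higher with UMBO, where 5.3% of all genes tested were higher, and 0 of the 7 were lower, where 2.06% were lower. Of the 7 genes, in 6 every UMBO value exceeded every vehicle value, where the share of all genes tested was 11.5%. DESeq2's Wald test gave an adjusted p for 6 of them and called Mcpt1 and Mcpt2, in a table where 0.182% of the genes were called. The contrast that chose the genes is the same, and nothing is read from these counts.

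**Figure D1:**
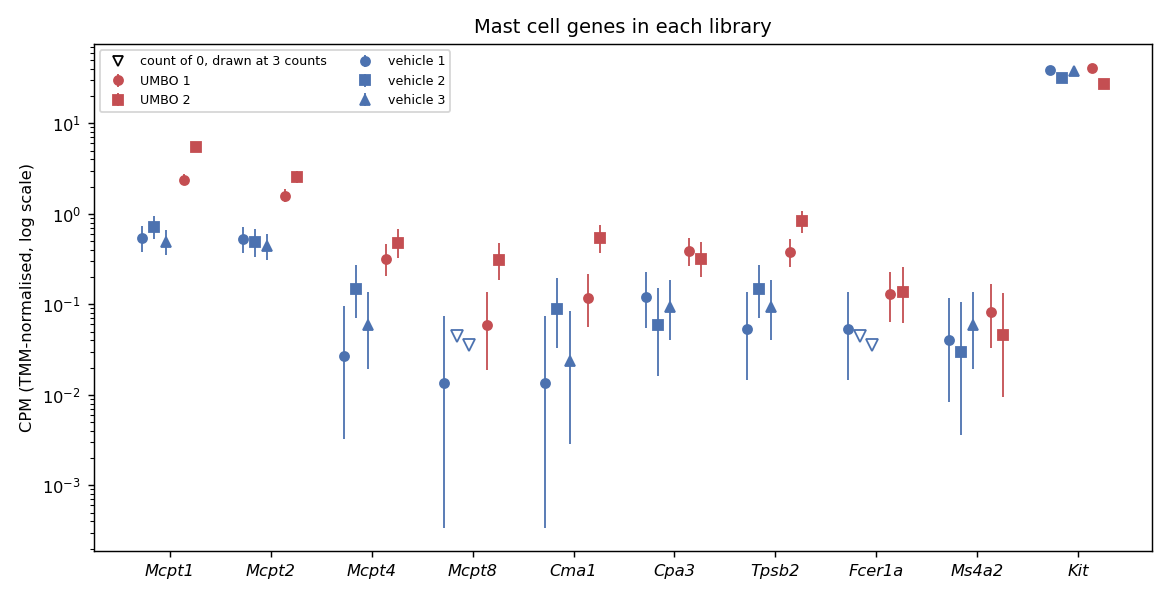
CPM on a log axis for the 10 mast cell genes, with 1 point per library (blue, vehicle; red, UMBO) and 95% exact Poisson intervals of the count as bars; open triangles stand for a count of 0 and are drawn at the level of 3 counts. The red points lie above all blue points for the 7 proteases and Fcer1a. For Kit they lie on either side of the blue points, at 40.5 CPM (UMBO replicate 1) and 27.1 CPM (UMBO replicate 2).

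Mcpt1 was the most abundant of the proteases. Its counts were 40, 48 and 41 with vehicle (replicates 1 to 3, in this order throughout) and 204 and 358 with UMBO (replicates 1 and 2). In CPM it was at 0.535, 0.712 and 0.484 with vehicle and at 2.39 and 5.47 with UMBO. The vehicle libraries lay close together, both UMBO libraries lay above them, and UMBO replicate 2 was 2.29 times as high as UMBO replicate 1. The 95% exact Poisson intervals of the counts reached at most 0.944 CPM with vehicle and began at 2.07 CPM in UMBO replicate 1, so counting error alone does not make the groups meet; such intervals cover counting error only. The means were 0.577 ± 0.120 CPM (SD, n = 3) and 3.93 ± 2.18 CPM (SD, n = 2), a log2 fold change of 2.76 ± 0.450 (SE). It was 2.05 without UMBO replicate 2, and 75 of the genes tested had a larger log2 fold change than Mcpt1 in the comparison of all libraries.

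Mcpt2, the other chymase of mucosal mast cells, had counts of 39, 33 and 37 with vehicle and of 136 and 169 with UMBO. Its CPM was 0.522, 0.490 and 0.437 against 1.59 and 2.58. These vehicle values had the narrowest relative spread among the proteases, and both UMBO values lay above them. The means of 0.483 ± 0.0427 CPM (SD, n = 3) and 2.09 ± 0.700 CPM (SD, n = 2) gave a log2 fold change of 2.11 ± 0.353 (SE), which was 1.72 without UMBO replicate 2.

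Mcpt4, the chymase that stands closest to human chymase in its cleavage of connective tissue substrates, was far rarer. Its counts were 2, 10 and 5 with vehicle and 27 and 31 with UMBO, or 0.0268, 0.148 and 0.0591 CPM against 0.316 and 0.473 CPM. Both UMBO libraries lay above the vehicle libraries, among which replicate 2 was high. The log2 fold change was 2.33 ± 0.676 (SE), and it was 2.03 without UMBO replicate 2, 3.16 without vehicle replicate 2 and 1.93 without vehicle replicate 1. Cma1, whose product has turned from a chymase to an elastase in rodents, had counts of 1, 6 and 2 with vehicle and of 10 and 35 with UMBO. In CPM these were 0.0134, 0.0890 and 0.0236 against 0.117 and 0.534. UMBO replicate 2 was 4.57 times as high as UMBO replicate 1. The ratio of the pooled counts was 7.51, with a 95% exact counting interval of 3.63 to 17.5, and the log2 fold change without a filter fell from 2.90 to 1.50 when UMBO replicate 2 was left out.

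Cpa3 is the carboxypeptidase of the granule and trims peptides from their C-terminal end. Its counts were 9, 4 and 8 with vehicle and 33 and 21 with UMBO. The CPM values were 0.120, 0.0593 and 0.0945 against 0.386 and 0.321. Unlike Mcpt1, Cpa3 was not higher in UMBO replicate 2 than in UMBO replicate 1 (ratio 0.831), and the means of 0.0914 ± 0.0306 CPM (SD, n = 3) and 0.353 ± 0.0463 CPM (SD, n = 2) gave a log2 fold change of 1.93 ± 0.453 (SE). Without UMBO replicate 2 it was 2.05. Tpsb2, a tryptase that is active as a heparin-bound tetramer, had counts of 4, 10 and 8 with vehicle and of 32 and 54 with UMBO, which were 0.0535, 0.148 and 0.0945 CPM against 0.374 and 0.825 CPM. Both UMBO libraries were above every vehicle library, with a log2 fold change of 2.58 ± 0.584 (SE), and of 1.92 without UMBO replicate 2.

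Mcpt8 was counted once in vehicle replicate 1 and not at all in vehicle replicates 2 and 3, where a count of 0 allows up to 0.0445 and 0.0354 CPM. It had 5 counts in UMBO replicate 1 and 20 in UMBO replicate 2, or 0.0585 and 0.305 CPM. The UMBO libraries were thus above the vehicle libraries, but 1 library held most of the counts. The ratio of the pooled counts was 37.6 with a 95% exact counting interval of 6.15 to 1542. Of the other basophil genes listed, the protease Prss34 had 3 counts over the 5 libraries, Il4 had 27 and Cd200r3 had 18, whereas the cytokine receptor Il3ra, which other cells carry too, had 2040. Cd200r3 lay at 0, 0.0148 and 0 CPM with vehicle and at 0.0117 and 0.244 CPM with UMBO. The Cd200r3 level in UMBO replicate 1 was within the vehicle range, and in UMBO replicate 2 it was above it.

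Counts of the IgE receptor subunits were low throughout. Fcer1a, the α chain that binds IgE, had 4, 0 and 0 counts with vehicle and 11 and 9 counts with UMBO. Its CPM was 0.0535 in vehicle replicate 1 and 0.129 and 0.137 with UMBO, so the UMBO libraries were alike and above the vehicle libraries. The pooled ratio was 7.51, with a 95% exact counting interval of 2.52 to 30.2. The log2 fold change was 2.80 ± 1.11 (SE), and it depends on the few vehicle counts, all of which were in vehicle replicate 1. Without UMBO replicate 2 it was 2.76. Ms4a2, the β chain that amplifies the signal and is a defining gene of mast cells and basophils, had 3, 2 and 5 counts with vehicle and 7 and 3 with UMBO. Its CPM of 0.0401, 0.0297 and 0.0591 with vehicle overlapped 0.0819 and 0.0458 with UMBO. The pooled ratio of Ms4a2 was 1.50, and its 95% exact counting interval of 0.561 to 4.02 holds values from lower to several times higher with UMBO. At 2 to 7 counts per library a difference of Ms4a2 within this interval was not detectable at this depth. The interval overlaps that of Fcer1a. Its upper end lies below the pooled ratios of Fcer1a and of all the proteases except Cpa3, at 3.86. Such intervals cover counting error only.

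Kit was counted 2889, 2138 and 3228 times with vehicle and 3465 and 1777 times with UMBO. In CPM this was 38.6, 31.7 and 38.1 against 40.5 and 27.1, so that the UMBO libraries were the highest and the lowest of the 5. The means of 36.2 ± 3.86 CPM (SD, n = 3) and 33.8 ± 9.48 CPM (SD, n = 2) differed by less than the SD of either group, and the log2 fold change was -0.10 ± 0.227 (SE). Its sign followed the UMBO library that was kept, at 0.17 without UMBO replicate 2 and -0.44 without UMBO replicate 1. Kitl, the gene of its ligand stem cell factor, was at 65.6, 54.5 and 65.8 CPM with vehicle and at 55.0 and 32.1 CPM with UMBO.

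Levels of the 10 genes were ranked against each other per length, as CPM per kb of exon. On that scale Kit stood at 4.06 with vehicle and 3.80 with UMBO, and Mcpt1 at 0.569 with vehicle and 3.87 with UMBO, so that Kit led with vehicle and Mcpt1 by a narrow margin with UMBO. Mcpt2 stood at 0.455 and 1.97. With vehicle the other proteases followed, from Mcpt4 at 0.0704, Tpsb2 at 0.0620 and Cpa3 at 0.0603 down to Cma1 at 0.0385 and, as the lowest of the 10 genes, Mcpt8 at 0.00447. With UMBO they were Tpsb2 at 0.376, Mcpt4 at 0.356, Cma1 at 0.299, Cpa3 at 0.233 and Mcpt8 at 0.182. Fcer1a stood at 0.0179 with vehicle and 0.133 with UMBO, and Ms4a2 at 0.0153 and 0.0227. The steps from Kit to Mcpt1 and from Mcpt2 to Mcpt4 with vehicle, and from Mcpt2 to Tpsb2 and from Fcer1a to Ms4a2 with UMBO, were wider than the SD of the libraries, whereas Mcpt1 and Mcpt2 with vehicle, and Kit and Mcpt1 with UMBO, were not apart by more than that spread. Among the rarer proteases, next neighbours in the order differed by less than the larger of their SDs, from Mcpt4 down to Cma1 with vehicle and from Tpsb2 down to Mcpt8 with UMBO.

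The 7 proteases together had 96, 111 and 101 counts with vehicle and 447 and 688 with UMBO, or 1.28, 1.65 and 1.19 CPM against 5.23 and 10.5 CPM. Within this sum, taken per length, Mcpt1 made up 44.6%, 46.5% and 44.0% with vehicle and 49.1% and 55.2% with UMBO. The share of Mcpt2 was 41.6%, 30.5% and 37.9% with vehicle against 31.3% and 24.9% with UMBO. Both chymases of mucosal mast cells thus dominated the protease signal in every library. The ratio of Mcpt1 to Mcpt2 counts was 1.03, 1.46 and 1.11 with vehicle and 1.50 and 2.12 with UMBO. No other protease held more than 8.86% of the sum in any library.

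**Figure D2:**
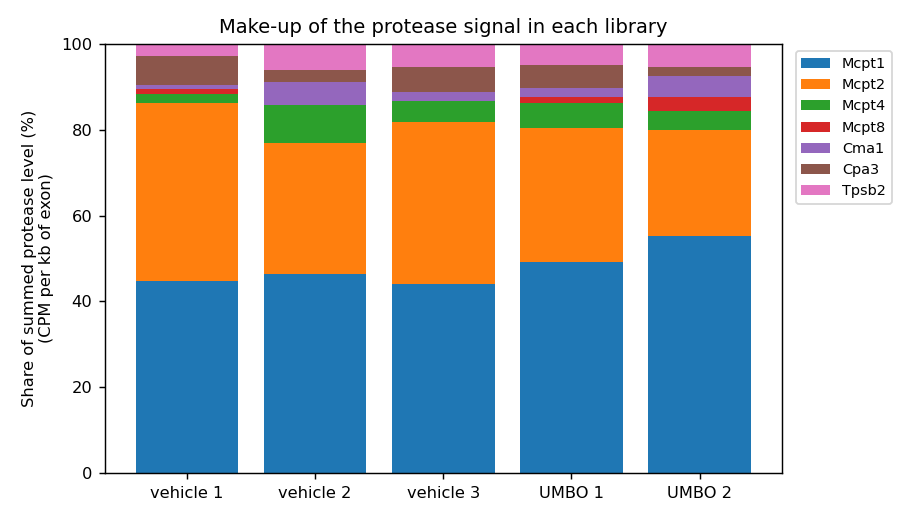
Share of each protease in the summed protease level of a library, in percent of CPM per kb of exon, 1 bar per library. Mcpt1 and Mcpt2 fill most of every bar, and the share of Mcpt1 is highest in UMBO replicate 2, at 55.2%.

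Chymase genes resemble each other, so their reads could be split between copies. The transcripts of Mcpt1 and Mcpt2 were identical at 81.8% of 962 aligned bases, and their longest identical stretch was 49 bases. Mcpt1 and Mcpt4 were identical at 85.2% of the aligned bases with a longest stretch of 46 bases. Mcpt4 and Cma2 shared a stretch of 100 bases, so reads of Mcpt4 are less certain. For 9 of the 10 genes, no window of 101 bases of any of their transcripts occurred in the transcripts of another annotated gene. The exception was Ms4a2, which shared 0.374% of its windows with Ms4a4b. Shorter or mismatched alignments are not covered by this count. No exon of the 10 genes overlapped an exon of another annotated gene, so the unknown strand setting of the counting does not touch them there.

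Mcpt1 (14:56017971-56020384, plus strand of GRCm38), Mcpt2 (14:56042041-56044642, plus strand), Mcpt4 (14:56059629-56062313, minus strand), Mcpt8 (14:56082166-56085273, minus strand) and Cma1 (14:55941451-55944675, minus strand) lie in the chymase locus of chromosome 14. The others lie on other chromosomes. Cpa3 is on chromosome 3 (20215620 to 20242181, minus strand), Tpsb2 on chromosome 17 (25366305 to 25369098, plus strand), Fcer1a on chromosome 1 (173221284 to 173227214, minus strand), Ms4a2 on chromosome 19 (11615523 to 11623719, minus strand) and Kit on chromosome 5 (75574916 to 75656722, plus strand). The 5 chymase locus genes had 83, 97 and 85 counts together with vehicle and 382 and 613 with UMBO.

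To show how alike the starts of the genes are, the 120 bases before the RefSeq start are given for Mcpt1 and Mcpt4, and for Cpa3 as a protease gene outside the locus (GRCm38.p6, each 5′ to 3′ on the gene's strand). Capitals mark TGATAA or AGATAA, forms of the motif of GATA factors, and TATAAA, the TATA box; the GATA forms share their last 5 letters.
Mcpt1: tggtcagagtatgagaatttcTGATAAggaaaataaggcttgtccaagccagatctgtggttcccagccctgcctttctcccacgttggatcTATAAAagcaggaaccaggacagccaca
Mcpt4: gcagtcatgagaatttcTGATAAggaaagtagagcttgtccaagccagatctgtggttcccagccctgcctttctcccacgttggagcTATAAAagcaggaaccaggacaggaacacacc
Cpa3: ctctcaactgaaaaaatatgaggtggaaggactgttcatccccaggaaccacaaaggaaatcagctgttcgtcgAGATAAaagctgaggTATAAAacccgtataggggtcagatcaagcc
The stretches are chr14:56017844-56017963 on the plus strand for Mcpt1, chr14:56062311-56062430 on the minus strand for Mcpt4 and chr3:20242182-20242301 on the minus strand for Cpa3. Over the whole windows of 250 bases before to 50 bases after the start, Mcpt1 and Mcpt4 were identical at 85.6% of 291 aligned bases, where the other pairs of the 8 genes with a window had 51.5% to 66.4%. A TATAAA began 28 bases before the start in Mcpt1, 32 in Mcpt4 and 31 in Cpa3, and the GATA form began 99, 103 and 46 bases before it.

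Windows were found for 8 of the 10 genes and not for Mcpt2 and Tpsb2. Searched on both strands, 5 of the 8 windows held AGATAA or TGATAA (Mcpt1, Mcpt4, Cpa3, Fcer1a and Ms4a2), as did 18.5% of the 32544 windows of the table. TATAAA was in 4 of the 8 (Mcpt1, Mcpt4, Cpa3 and Fcer1a) and in 13.6% of all windows. Mcpt8, Cma1 and Kit held none of these letters. A match is a description of the letters only. Gata1, one of the factors that bind the motif in mast cells, lay at 0.0401, 0.119 and 0 CPM with vehicle and at 0.0234 and 0.137 CPM with UMBO, and Gata2 at 3.38, 4.96 and 5.97 CPM against 5.57 and 6.44 CPM, so both overlapped between the groups.

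The neighbours of the chymases in the locus were counted too. Cma2 and Mcpt9, further chymase genes, had at most 2 counts in a vehicle library and 17 and 4 or 5 and 6 counts with UMBO. These genes are identical at 98.1% of their aligned bases and share a stretch of 196 bases, so their reads cannot be told apart with certainty. Cathepsin G (Ctsg), a protease of neutrophils and connective tissue mast cells, had 0 counts with vehicle and 1 and 7 with UMBO. Next to it lie granzyme genes, serine proteases of cytotoxic lymphocytes. Gzmd had 2, 16 and 1 counts with vehicle and 110 and 190 with UMBO, a log2 fold change of 4.54 ± 1.05 (SE). Gzmf and Gzmc had log2 fold changes of 5.92 and 3.22. Of the 6 granzymes of the locus that could be tested, 5 were higher at an unadjusted p under 0.05 in edgeR's test, where the share of all genes was 5.3%, and 0 passed after adjustment. Gzmb was at 0.816, 3.71 and 2.14 CPM with vehicle and overlapped 2.73 and 10.7 CPM with UMBO. On the far side of Cma1 the genes Nynrin, Cbln3, Khnyn and Sdr39u1 had log2 differences of -0.43, -0.31, 0.10 and -0.25, and none of them had both UMBO libraries above the vehicle libraries.

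**Figure D3:**
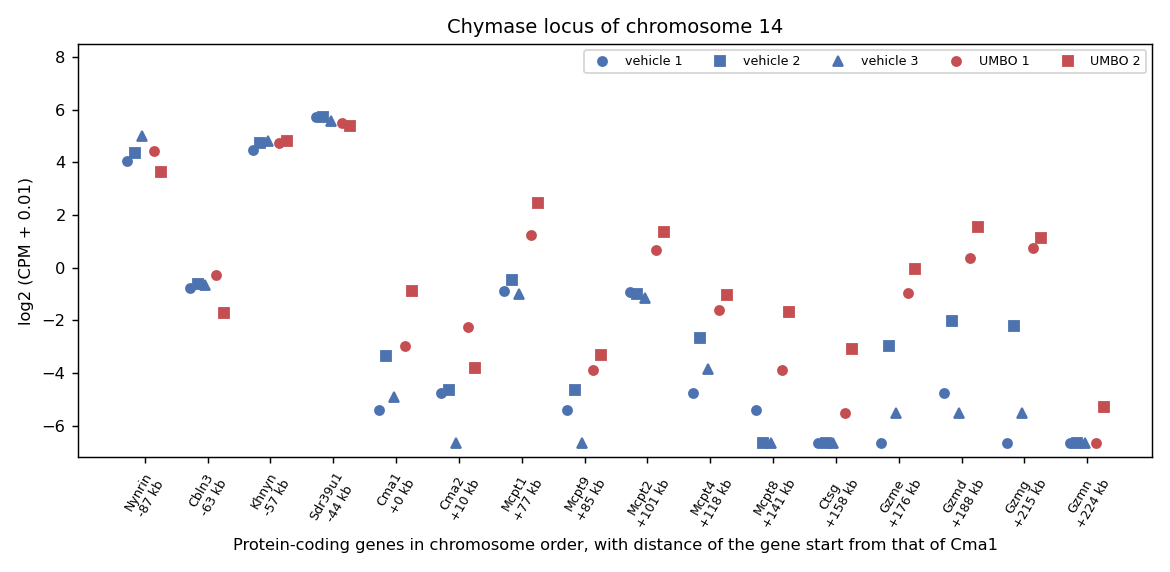
Level of each protein-coding gene in and around the chymase locus of chromosome 14, as log2 of CPM + 0.01, in chromosome order with the distance of the gene's start from that of Cma1 in kb; each point is a library (blue, vehicle; red, UMBO), and a count of 0 lies at the lower edge. Red points are above blue points for the chymases and for Gzmd, Gzme and Gzmg, and do not lie above all blue points for Nynrin, Cbln3, Khnyn and Sdr39u1.

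Other products of mast cells were taken from lists of known genes. Of 7 further granule genes, only the proteoglycan core Srgn had enough counts for the test, and it overlapped between the groups at 6.57, 25.3 and 9.69 CPM against 16.04 and 54.6 CPM. Tpsab1, also a tryptase, was at 0.0401, 0.0297 and 0.0236 CPM with vehicle and at 0.117 and 0.229 CPM with UMBO, and Tpsg1 was at 0.0401 to 0.0593 CPM against 0.105 and 0.0611 CPM. For histamine, prostaglandins and leukotrienes 10 genes were tested, and 4 were higher and 0 lower at an unadjusted p under 0.05 in edgeR's test, where the shares of all genes were 5.3% and 2.06%, with a median log2 difference of 0.50. Ltc4s, the synthase of leukotriene C4, had a log2 fold change of 1.17 ± 0.296 (SE). For Hpgds, the prostaglandin D synthase of haematopoietic cells, it was 0.66 ± 0.197 (SE). Ptgs1 had a log2 fold change of 0.56 ± 0.222 (SE). Hnmt, which inactivates histamine, was lower in both UMBO libraries than in the vehicle libraries at a log2 fold change of -0.48 that did not pass, and Ndst2, which acts in heparin synthesis, was at -0.00. Hdc, which makes histamine and was named after its values were seen, overlapped at 3.37 to 9.63 CPM with vehicle and 8.15 and 8.76 CPM with UMBO. Macrophages and microglia express several of these enzymes as well.

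Among 13 genes that carry the signal of the IgE receptor, 6 were higher and 0 lower at an unadjusted p under 0.05 by edgeR (all genes, 5.3% and 2.06%), with a median log2 difference of 0.80. Fcer1g, the γ chain that the receptor shares with other Fc receptors of myeloid cells, had a log2 fold change of 1.89 ± 0.748 (SE). Lyn, the kinase that phosphorylates the receptor, had a log2 fold change of 1.18 ± 0.349 (SE), and Inpp5d, the phosphatase that restrains it, one of 0.77 ± 0.257 (SE). Fyn and Plcg1 had log2 fold changes of 0.28 and -0.29 and did not pass. The γ chain was at 8.31 to 28.9 CPM with vehicle. This was far above the CPM of either chain particular to the IgE receptor, without scaling by length. With UMBO it was at 22.0 CPM in replicate 1, within the vehicle range, and at 98.4 CPM in replicate 2. Like the γ chain, Lyn and Inpp5d are expressed by other myeloid cells too, and the source of their counts was not tested.

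The growth factors and transcription factors of mast cells showed 1 gene higher and 0 lower out of 9 tested at an unadjusted p under 0.05 by edgeR (all genes, 5.3% and 2.06%), the cytokine receptor Csf2rb at a log2 fold change of 1.49 ± 0.593 (SE). Csf2rb in UMBO replicate 1, at 7.50 CPM, was within the vehicle range of 2.88 to 8.31 CPM. Il33, the alarmin that acts on mast cells, had a log2 fold change of -0.25, Mitf one of -0.02, Kitl one of -0.51 and Il3ra one of 0.87. The cytokine Il9 was at 0 counts in every library. Of 6 tested genes in a list of surface receptors and related proteins, 3 were higher and 0 lower at an unadjusted p under 0.05 by edgeR (all genes, 5.3% and 2.06%). They were the complement receptors C3ar1 and C5ar1, with log2 fold changes of 1.79 and 2.53, and the regulator Rgs13 with 1.09, while Adora3, at 1.06, did not pass. C3ar1 was at 4.17 to 13.9 CPM with vehicle, and UMBO replicate 1, at 13.6 CPM, lay within that range. Other myeloid cells carry both complement receptors too, and the source of their counts was not tested. Mrgprb2, the receptor that defines connective tissue mast cells, had 5 counts over the 5 libraries, and Mrgprb1 had 1. None of the genes of these lists passed after adjustment.

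Marker lists of other cell types were summed over the same libraries. At an unadjusted p under 0.05 by edgeR, 5.3% of all genes tested were higher and 2.06% lower, and the counts of each list stand beside these shares. The summed level of 8 proliferation genes was 40.0, 90.1 and 27.1 CPM with vehicle and 93.1 and 400 CPM with UMBO, with 8 of 8 higher, among them Top2a at a log2 fold change of 2.31. For 7 genes of monocytes and macrophages the sum was 18.5, 111 and 37.2 CPM against 80.8 and 427 CPM, with 2 of 7 higher (Lyz2 and Cd14), and Arg1 did not pass. In 5 of the 8 proliferation genes every UMBO value exceeded every vehicle value, where the share of all genes tested was 11.5%. Lyz2 in UMBO replicate 1, at 60.3 CPM, was within the vehicle range of 13.7 to 65.0 CPM. UMBO replicate 2 had the highest level in both lists, and vehicle replicate 2 the highest of the vehicle libraries. Sums of the 7 cytotoxic lymphocyte genes were 2.42 to 12.7 CPM with vehicle and 6.10 and 43.5 CPM with UMBO, with Ncr1 as the 1 gene higher. For 4 eosinophil genes they were 1.03 to 2.76 CPM against 3.10 and 3.73 CPM, with 0 of 3 tested higher. Neutrophil genes, 9 in the list, summed to 1.61 to 2.48 CPM against 2.07 and 6.34 CPM, with 1 of 6 tested higher (S100a8). S100a8 in UMBO replicate 1, at 0.222 CPM, was within the vehicle range of 0.0827 to 0.252 CPM. None of the genes of these lists was lower.

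Genes of neighbouring tissues were summed too. The 8 genes of meningeal fibroblasts summed to 70.0, 106 and 102 CPM with vehicle and to 159.5 and 176 CPM with UMBO. Dcn, at 1.39 ± 0.249 (SE), and Col1a1, at 1.16 ± 0.214 (SE), had the largest log2 fold changes of the 8. Fibroblasts of vessels and tumor stroma also express these 2 genes. The other 6 genes summed to 39.9, 62.1 and 55.6 against 59.4 and 81.3 CPM and overlapped between the groups. Dcn and Col1a1 were left out after the values were seen and had the smallest p of the list. A smaller difference in the remainder was thus built in. Of the 8, 4 were higher and 0 lower at an unadjusted p under 0.05 by edgeR (all genes, 5.3% and 2.06%), and Ogn and Slc6a13 had log2 fold changes of -0.56 and 0.12. In 5 of the 8 (Dcn, Col1a1, Lum, Aldh1a2 and Foxc1) every UMBO value exceeded every vehicle value, beside 11.5% of all genes tested. Thalamic neuron genes, 7 in number, summed to 467 to 575 CPM against 459 and 301 CPM, and without Rora to 338.3, 340 and 427.9 against 339.5 and 226.2 CPM, where UMBO replicate 1 was within the vehicle range. The 6 choroid plexus genes summed to 803 to 832 CPM against 850.0 and 490.2 CPM, and the 5 genes of red blood cells to 71.8 to 165 CPM against 181 and 217 CPM. In these 3 lists 0 genes were higher and 0 lower at that threshold. The part of these cell types and tissues in the levels of the mast cell genes was not tested.

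**Figure D4:**
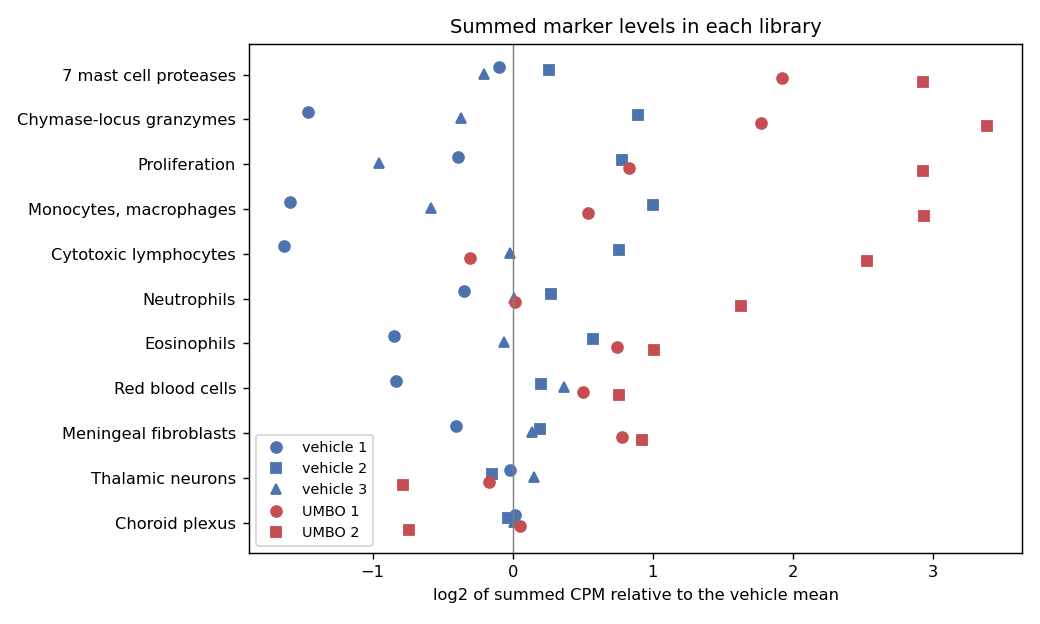
Summed CPM of each marker list relative to the mean of the vehicle libraries, as log2, with 1 point per library. For the 7 mast cell proteases the vehicle points lie from -0.20 to 0.26 and the UMBO points at 1.93 and 2.93. For monocytes and macrophages the vehicle points lie from -1.59 to 1.0 and the UMBO points at 0.54 and 2.94. Both UMBO points also lie above every vehicle point for the chymase-locus granzymes, proliferation, eosinophils, red blood cells and meningeal fibroblasts. For the granzymes the vehicle points reach 0.90 and the UMBO points lie at 1.77 and 3.39. Cytotoxic lymphocytes, neutrophils and choroid plexus overlap, and for thalamic neurons both UMBO points lie below.

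Genes of further cell types, some of which carry Kit, were listed too. The 7 interneuron genes had a median log2 difference of -0.36, and 3 of them had both UMBO libraries below the vehicle libraries (Gad1 and Pvalb, with log2 fold changes of -0.37 and -0.40, and Vip). At an unadjusted p under 0.05 by edgeR 1 of the 7 was higher, Npy at 0.67, and 0 were lower, beside 5.3% and 2.06% of all genes. Their sums were 795 to 961 CPM with vehicle and 813 and 654 CPM with UMBO. UMBO replicate 2 was lowest here and for Kit, and likewise in the thalamic, choroid plexus and cerebellar sums. Of 5 genes of oligodendrocyte precursors 3 were higher (Olig1, Olig2 and Gpr17), of 4 melanocyte genes tested 1 was higher (Pmel), of 4 cerebellar genes tested 0 were higher, and 0 were lower in each list, beside the same shares of all genes. Gpr17 in UMBO replicate 2, at 62.9 CPM, was within the vehicle range of 49.4 to 68.9 CPM.

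Likeness of a gene's pattern to that of a mast cell gene was measured as the root-mean-square difference of their centred log2 CPM over the 5 libraries. Such likeness over 5 libraries is a description, since all genes share the same libraries. The nearest gene to Mcpt1 was Epcam, an adhesion molecule of epithelia, at 0.197, and the nearest to Mcpt2 was Rbm44 at 0.113. Mcpt4 was nearest to Dhh at 0.145, Cpa3 to Matn1 at 0.163 and Tpsb2 to Serpinf2 at 0.106. The nearest gene to Fcer1a, Cryba2, was farther away at 0.367. Among the mast cell genes, the nearest pairs were Mcpt4 and Tpsb2 at 0.272, Mcpt1 and Tpsb2 at 0.311, and Mcpt1 and Mcpt2 at 0.368. Cpa3 was farther from most of the other proteases, at 0.411 (Mcpt2) to 0.861 (Mcpt4). Fcer1a was 0.464 (Cpa3) to 1.08 (Mcpt4) away from the proteases, so these genes did not share 1 pattern. Kit was 0.919 to 1.47 away from the others and had 6445 genes within 0.25, the nearest of them Pik3r3 at 0.020.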

How the data were processed

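Each of 5 libraries (3 vehicle, 2 UMBO) was made from the right hemisphere of a mouse. The authors mapped reads with STAR 2.7.2a to GRCm38 and deposited raw counts per Ensembl gene, without normalization. The annotation release and strand setting are not given in the sources used here. Symbols, positions and exon lengths came from GENCODE M21 and promoter windows from RefSeq (GRCm38.p6). Counts were normalised by TMM, filtered with filterByExpr (minimum count 10), and compared by edgeR 4.0.16 in R 4.3.3 (quasi-likelihood test, 23592 genes, Benjamini-Hochberg adjustment, threshold 0.05). Log2 CPM used a prior count of 2, and intervals are 95% exact Poisson or binomial intervals. Totals of 59736771 to 86164159 counts make counting error small except for genes with few counts. DESeq2 1.42.0, other normalisations and filters, the replicate number as a block and each library left out in turn were alternatives. Sequences were aligned with Biopython 1.88. The scripts were tested on simulated data.

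The 10 genes and all lists were chosen with earlier results of these data known. The rule for names took all 10 genes, from each list up to 3 genes of highest mean CPM and up to 2 of smallest p, and the 2 nearest genes by pattern; for lists of other cell types and for the nearest genes, only some of these are printed. The neighbours in the chymase locus, Gata1, Gata2, Hdc, Ogn, Slc6a13, Lum, Foxc1, Vip and the genes at or near 0 counts were named after their values were seen. Sums without Dcn and Col1a1 or without Rora were added after the data were seen. They leave out the genes of smallest p in their lists, so a smaller difference was built in.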

Additional observations from a re-analysis of the deposited data

How the results depend on the processing

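The 7 proteases and Fcer1a were higher with UMBO under every alternative that gave them a value. Log2 fold changes were 2.05 to 3.22 for Mcpt1, 1.72 to 2.39 for Mcpt2, 1.93 to 3.16 for Mcpt4, 1.74 to 2.16 for Cpa3, 1.92 to 3.03 for Tpsb2, 2.19 to 6.34 for Fcer1a, 1.498 to 3.95 for Cma1 and 3.32 to 6.74 for Mcpt8. Fcer1a and Mcpt8 reached their upper ends without vehicle replicate 1, which held all of their vehicle counts, and a fitted value against libraries at 0 depends on the prior count and is no bound. Ms4a2 lay between 0.02 and 0.89 and Kit between -0.44 and 0.17, and Kit was at 0.01 when scaled by library size only.

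The median log2 difference of the 10 genes, 2.11, was 2.20 when scaled by library size only and 2.51 with a prior count of 0.5; it lay between 1.72 (without UMBO replicate 2) and 2.36 (without UMBO replicate 1) when a library was left out.

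At an adjusted p under 0.05 edgeR called 0 genes (1251 higher and 487 lower at an unadjusted p under 0.05), DESeq2's Wald test 42, and edgeR between 0 and 4543 with a library left out, the 4543 without UMBO replicate 1. The remaining UMBO library is then assumed to vary like the vehicle libraries. At an unadjusted p under 0.05, counts higher with UMBO were 2954 without a filter on low counts, 1913 by DESeq2 and 194 (without vehicle replicate 1) to 5310 (without UMBO replicate 1) with a library left out. Counts lower with UMBO were 1146 without a filter and 102 to 4855 with a library left out, in the same libraries. Without vehicle replicate 3 there were 217 higher and 215 lower, and without UMBO replicate 2 there were 281 and 174. Without vehicle replicate 2 there were 2164 and 510. The causes were not tested.

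With the replicate number as a block, edgeR called 2337 genes at an adjusted p under 0.05, among them 5 of the 7 mast cell genes tested, and 3396 genes were higher and 2738 lower at an unadjusted p under 0.05. Vehicle replicate 3 is then alone in its number, so the group difference rests on the 2 numbers that both groups share. This fit leaves almost nothing to estimate the spread from, and nothing is read from its calls. The labels do not say that equal numbers mark a shared litter, batch or day. Deviations from the group means correlated at 0.45 and 0.76 in the 2 numbers that the groups share, which are too few to establish pairs. The deviations of the 2 UMBO libraries from their mean mirror each other, so these correlations are not independent. The depth limits Mcpt8, Cma1, Fcer1a and Ms4a2, and the number of mice limits every comparison.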
